A study of Mus musculus with 16 samples.

Results

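A total of 86 genes for cytosolic ribosomal proteins were followed in microglia sorted from the cortex of mice fed control chow or chow with PLX3397, which blocks the CSF1 receptor that microglia depend on. They were taken by symbol from the 53850 genes of the deposited table: protein-coding mouse genes named Rps or Rpl with a number, Rpsa, and Rplp0 to Rplp2. The 9 Rps6k kinases and the pseudogenes with -ps in their symbol were left out, and no measured value entered the choice. Of the 86 genes, 77 encode the standard proteins of the ribosome: 31 of the small subunit, 43 of the large subunit and 3 of the P stalk. These 77 are called core genes here. The other 9 are the paralogs and copies Rpl22l1, Rps27l, Rpl36al, Rpl39l, Rpl3l, Rpl10l, Rpl7l1 and Rps27rt, and Rps19bp1, which encodes a binding partner of Rps19 and no ribosomal protein. The 86 genes lie on 19 chromosomes, with 14 on chromosome 7, 8 on chromosome 9 and 4 on the X chromosome.

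The mice were C57BL/6J males and females, described as young and as adult, with no genetic change named, and their chow held PLX3397 or no drug for 1 week. Microglia of the cortex were then collected by fluorescence-activated cell sorting, and their RNA was sequenced after amplification from 500 pg of total RNA. The 16 libraries form 4 groups of 4: male controls, males on PLX3397, female controls and females on PLX3397. PLX3397 kills most microglia, so the cells of both drug groups are those still present after 1 week, and the drug also blocks the related receptors KIT and FLT3. The sort gate is not given in the sources used here, nor whether the 4 samples of a group came from separate animals, so p-values measure the spread between these samples, which may be technical. In such bulk RNA, fewer cells of a type and less RNA per cell cannot be told apart.

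Ribosomal proteins are made in near-equal amounts and are assembled with ribosomal RNA in the nucleolus into a small subunit, which reads the message, and a large subunit, which joins amino acids. Their messages are among the most abundant of a cell, are short, and usually begin with a C followed by a run of C and T, the terminal oligopyrimidine tract. Through this tract the kinase mTOR and the RNA-binding protein Larp1 tie the translation and stability of these messages to growth signals. The CSF1 receptor is known to signal to mTOR through PI3 kinase and Akt.

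The start sites of 66 of the 86 genes could be read from RefSeq's promoter table, build GRCm38.p6. They are shown because the run of C and T near the start is a sequence feature that the symbol rule did not use. Each line below gives 30 bases, 5′ to 3′ on the gene's strand, around the longest run of C and T within 50 bases of the annotated start, with that run in capitals. The first 7 belong to genes that rose in one sex or in both, as described further on.
Rps25: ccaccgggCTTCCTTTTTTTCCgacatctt
Rps18: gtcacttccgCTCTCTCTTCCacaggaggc
Rpl41: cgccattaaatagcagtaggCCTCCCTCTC
Rps19: accccgtcgTTCCCTTTCCCCTggctggca
Rpl35: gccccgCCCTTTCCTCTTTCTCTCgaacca
Rps12: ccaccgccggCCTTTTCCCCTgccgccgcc
Rps21: ggaggcacgagctaCTTCCTTTCTgcgctc
The other 4 differ in having a run shorter than 10 bases. Of these, Rps28 rose in females and Rpl7l1 differed between the sexes on PLX3397, while Rpl5 and Rps4x passed no test.
Rps28: tctgtcccgaggaTTCCTgggtaccgcgtg
Rpl5: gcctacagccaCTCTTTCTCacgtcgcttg
Rpl7l1: cgtcgaggcgggCCTCTCTaccccgcccgg
Rps4x: cgcgcagcctccgaccctaaTTTCTTCgtt

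These windows lie for Rps25 at chr9:44407684-44407713 (plus strand), Rps18 at chr17:33955648-33955677 (minus strand), Rpl41 at chr10:128549119-128549148 (minus strand), Rps19 at chr7:24884622-24884651 (plus strand), Rpl35 at chr2:39005115-39005144 (minus strand), Rps12 at chr10:23787182-23787211 (minus strand) and Rps21 at chr2:180257399-180257428 (plus strand). Those of the other genes are Rps28 at chr17:33824567-33824596 (minus strand), Rpl5 at chr5:107900497-107900526 (plus strand), Rpl7l1 at chr17:46782671-46782700 (minus strand) and Rps4x at chrX:102189342-102189371 (minus strand). The longest run was 18 bases in Rpl35, 14 in Rps25 and 13 in Rps19, against 5 in Rps28, 7 in Rps4x and Rpl7l1 and 9 in Rpl5. Counted from the annotated start, the run lay at -2 to 8 in Rps18 and at -7 to 10 in Rpl35. It lay at -45 to -33 in Rps19, -22 to -9 in Rps25, -21 to -17 in Rps28, 34 to 43 in Rps21 and 40 to 49 in Rpl41. Annotated starts can be off by some bases, so the run need not begin at the start itself. A run in capitals need not be the terminal tract of the message.

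Over the 78 start-site windows of these genes, since some have more than 1, 75.6% held a run of at least 8 C or T within 50 bases of the start, against 35.7% of all 32851 windows in the table. The letters CTTTCC on the gene's strand were in 30.8% of the windows of ribosomal protein genes and in 4.69% of all windows, over the same 50 bases to either side. CTTTCC can itself lie inside a run of C and T, so these counts overlap. The letters CGGAAG, the core that ETS factors recognise, were found on either strand between 250 bases before and 50 bases after the start in 60.3% against 16.9%. TATAAA, on either strand within 50 bases, was in 6.41% against 4.94%. A match is a description of the letters in the window. Among core genes with a start site in the table, the median change on PLX3397 was 0.34 in males and 0.30 in females for the 48 with a run of at least 8. For the 9 with a shorter run these medians were 0.31 and 0.28.

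Values are normalised read counts as the authors deposited them, and changes are differences of means of log2(value + 1) with their SE, which understates changes of low genes. A gene is called where the Benjamini-Hochberg adjusted p of limma, over all 19594 genes tested, is under 0.05. A gene was tested where its value reached 10 in at least 4 libraries, which 84 of the 86 genes did. Rpl10l, known from the testis, was listed at 0 in all 16 libraries. Rpl3l, known from muscle, was above 0 in 2 libraries, at 1.53 in male control 4 and 2.62 in male PLX3397 2. Column totals ranged from 32641500 in male PLX3397 2 to 44162200 in female control 3. Whole reads could not be recovered from the values, so the exact depth of a library is unknown.

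The 8 microglial markers were far above 0 in every library. Their summed level was 2143750 to 2317660 in male controls, 978287 to 1385850 in males on PLX3397, 2034630 to 2488760 in female controls and 1567400 to 1781420 in females on PLX3397. All 8 fell in males and 6 of 8 in females. The 10 neutrophil markers summed to 531 to 3668 in male controls, 10558 to 73952 in males on PLX3397, 197 to 271 in female controls and 1046 to 3485 in females on PLX3397, and 8 rose in males and 6 in females. S100a8 and S100a9 were at 0 in all female controls, and Ly6g was at 0 in all 8 controls. Nearly all of the sum in female controls was Cxcr2, at 197 to 266, which was above 0 in every library and not called in either sex. Of 8 markers of border-associated macrophages, 6 fell in males and 4 in females, and Lyve1 and Cd209f were at 0 in every male PLX3397 library. Of the other marker lists, none of 5 monocyte and 4 neuron genes tested was called in either sex, 1 of 5 astrocyte genes rose in males and 2 in females, 1 of 4 oligodendrocyte genes rose in each, and 1 of 2 endothelial genes fell in each. The T cell markers Cd3e and Cd2 were at 0 in all 16 libraries. Transcripts encoded in mitochondria took 0.297% to 0.325%, 0.591% to 0.676%, 0.273% to 0.353% and 0.355% to 0.455% of the column total in the same order of groups. The part of these shifts in the results on ribosomal protein genes was not tested.

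A pair of libraries stood apart. Male control 4 held 516 of Xist, which is made from the inactive X chromosome of females, against 14.7 to 31.4 in the other 7 libraries of males and 5542 to 10451 in females. Its Y-linked Ddx3y, at 2589, was that of a male. Male PLX3397 3 had the highest neutrophil sum, 73952. The count of calls in males is also given without them.

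In male controls the level per kilobase of transcript differed 54.2-fold among the 77 core genes, around a median of 3383. Rpl13 was highest in each of the 4 groups, at 12169 per kilobase in male controls and 14449 in males on PLX3397, and Rps9 was the next, at 10409 and 13195. Rpl5, whose protein enters the large subunit together with Rpl11 and can also bind Mdm2, was lowest in each group, at 224 per kilobase in male controls. The order depends on which transcript is taken as the gene's own. Per kilobase of coding sequence Rpl5 was again lowest in male controls, at 515, but Rpl41, the smallest protein of the ribosome, came out highest at 42419, since its transcript is 5.83 times as long as its coding part.

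The share of the column total taken by all 86 genes was larger on PLX3397 in both sexes. It was 0.569, 0.547, 0.584 and 0.567% in male controls 1 to 4 and 0.698, 0.741, 0.800 and 0.870% in males on PLX3397, or 0.567 ± 0.0152% (SD, n = 4) against 0.777 ± 0.0744% (SD, n = 4). In females it was 0.566, 0.510, 0.560 and 0.562% in controls and 0.670, 0.691, 0.757 and 0.578% on PLX3397, or 0.550 ± 0.0263% (SD, n = 4) against 0.674 ± 0.0739% (SD, n = 4). The male groups did not overlap. All 4 females on PLX3397 also lay above the female controls, but PLX3397 4 was only just above them and apart from the other 3. In female controls, sample 2 was the lowest. With values as deposited, the summed level of the 86 genes was 223761 to 236823 in male controls and 241993 to 344253 in males on PLX3397. In females it was 196021 to 247439 in controls and 242415 to 319783 on PLX3397, where sample 4 lay within the range of the controls. No p-value is given for this sum, since it is a score over genes chosen together.

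**Figure D1:**
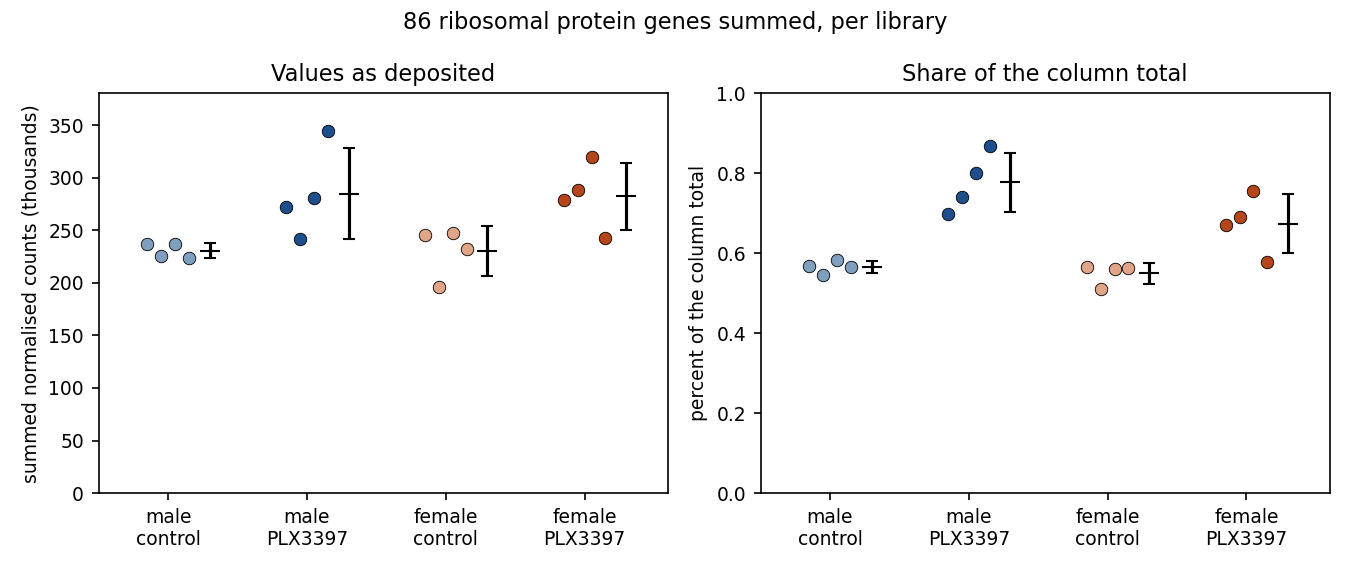
Share of the column total taken by the 86 ribosomal protein genes, in percent on the vertical axis, for each library of the 4 groups, with the group mean and SD. The 4 male PLX3397 libraries, from 0.698% to 0.870%, lie above the male controls, from 0.547% to 0.584%, and female PLX3397 4, at 0.578%, lies just above the highest female control, at 0.566%.

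The neutrophil sums were set beside these shares. In males on PLX3397 1 to 4 they were 10558, 11710.3, 73952 and 17851, so samples 3 and 4, which had the 2 largest shares of all 16 libraries, also had the 2 highest neutrophil sums, and samples 1 and 2 were lower in both. In females on PLX3397, sample 4 had the highest neutrophil sum, 3485, and the lowest share, 0.578%, and sample 3 had the lowest sum, 1046, and the highest share, 0.757%. The part of neutrophil transcripts in the shares was not tested.

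The first question was how in males the ribosomal protein transcripts of the cells that remained on PLX3397 differed from those of male controls. Of the 84 genes tested, 18 rose (21.4%) and 0 fell, against 4.16% higher and 7.52% lower of all 19594 genes, 11.7% in either direction. The changes of 78 genes were above 0, with a median of 0.31 against 0.02 for all genes. By subunit, 9 of 31 small-subunit genes rose, with a median change of 0.36, and 9 of 43 large-subunit genes, with a median of 0.27. None of the 3 P stalk genes was called (median 0.22), nor was any of the 7 tested among the paralogs and Rps19bp1 (median 0.06). In 32 of the 84 genes every male PLX3397 library lay above every male control, against 7.71% of all genes. Adjusted p-values here and below are limma's.

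Among small-subunit genes, Rps25, which some viral and cellular messages need to start translation internally, read 3423, 3197, 3269 and 3069 in male controls and 4298, 4599.8, 5182 and 5710.2 on PLX3397. All 4 drug libraries lay above all 4 controls, with sample 4 highest. The change was 0.60 ± 0.103 (SE), adjusted p = 0.000826. Rps19, the gene most often mutated in Diamond-Blackfan anaemia, read 3453, 3220.2, 3338 and 3168 in controls and 4601, 4361, 5504 and 6741 on PLX3397, again without overlap. Its change was 0.67 ± 0.136 (SE), adjusted p = 0.00360. Rps12 had the largest change of this subunit, 0.74 ± 0.203 (SE), adjusted p = 0.0253. Its pseudogenes hold reads too, as given further on. It is a low gene in these cells, at 768, 689, 487 and 549 in controls and 960.2, 888, 1247 and 1024 on PLX3397, with male PLX3397 3 highest.

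Rps27a, which is translated as a fusion with ubiquitin, rose by 0.56 ± 0.112 (SE), adjusted p = 0.00306. Rps18, a protein of the small subunit's head, rose by 0.55 ± 0.127 (SE), adjusted p = 0.00887. Rps27, a zinc-finger protein of the small subunit, rose by 0.53 ± 0.150 (SE), adjusted p = 0.0295. Rpsa, also known as the laminin receptor, read 3154, 3568, 2765 and 3109.7 in controls and 3957, 3614, 4485 and 6015 on PLX3397. The 2 groups came close, at 3568 and 3614, and the change was 0.50 ± 0.150 (SE), adjusted p = 0.0400. Rps24 rose by 0.49 ± 0.150 (SE), adjusted p = 0.0442, and Rps23, which sits near the decoding site, by 0.45 ± 0.131 (SE), adjusted p = 0.0353. Rps6, the target of the S6 kinases, was not called at 0.22 ± 0.141 (SE), adjusted p = 0.365. It read 4092, 3977, 4740.1 and 4662 in controls and 4992, 4225, 5295 and 6005 on PLX3397, so the groups overlapped.

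Among large-subunit genes, Rpl41 changed with the smallest adjusted p. It read 3367, 2841, 3298 and 3219.6 in male controls and 5139, 4737, 5314 and 6206 on PLX3397. The lowest drug library was well above the highest control, and the change was 0.75 ± 0.117 (SE), adjusted p = 0.000411. Rpl36 read 1966, 1656, 1534 and 1649.7 in controls and 2523, 2301, 2895 and 2978 on PLX3397, and changed by 0.65 ± 0.119 (SE), adjusted p = 0.00159. Rpl35, at the mouth of the tunnel through which the new protein leaves, had the largest change of the 18 called. It read 1486, 1083, 796 and 869 in controls and 1550.2, 1999.5, 2176 and 1666 on PLX3397, so control 1 nearly reached PLX3397 1, and its change was 0.83 ± 0.237 (SE), adjusted p = 0.0305.

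Rpl32 rose by 0.72 ± 0.155 (SE), adjusted p = 0.00527, from 3053, 2972, 3041 and 2665 to 4630.0, 4104, 4807 and 5918. Rpl37a, which carries a zinc finger, rose by 0.65 ± 0.151 (SE), adjusted p = 0.00847. Rpl17, another protein of the tunnel exit, rose by 0.64 ± 0.140 (SE), adjusted p = 0.00610, and male PLX3397 4, at 2953, was far above the other 3, which read 2090.2, 2008 and 1945. Rpl10a, of the L1 stalk and often used as a tag to pull down ribosomes, rose by 0.52 ± 0.106 (SE), adjusted p = 0.00339. Rpl3, close to the site where peptide bonds form, rose by 0.39 ± 0.103 (SE), adjusted p = 0.0202. Rpl14 was the last, at 0.46 ± 0.141 (SE), adjusted p = 0.0439.

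Not all ribosomal protein genes lay above the controls in males. Rpl5 had the lowest change, -0.46 ± 0.316 (SE), adjusted p = 0.415, and scattered widely, at 313, 527, 557 and 438 in controls and 229, 348, 496 and 283 on PLX3397. Rpl4, an abundant protein that lines the exit tunnel, read 8859.9, 8711, 8970.1 and 9532 in controls and 8659, 7549, 8047 and 10666 on PLX3397. These ranges overlapped, and the change was -0.06 ± 0.128 (SE), adjusted p = 0.838. Rpl27 was at -0.17 ± 0.158 (SE), adjusted p = 0.558. Of the P stalk, which recruits the elongation factors, Rplp0 was at 0.22 ± 0.149 (SE), Rplp1 at 0.28 ± 0.126 (SE) and Rplp2 at 0.18 ± 0.177 (SE), with adjusted p of 0.414, 0.174 and 0.601. Of the 3, Rplp1 was the one whose groups did not overlap. The largest changes without a call were those of Rpl39l, at 0.93 ± 1.13 (SE), and Rps27rt, at 0.70 ± 1.43 (SE), where libraries of one group scattered widely.

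The number of calls in males rested on single libraries. It was 11 without male control 3, male control 4 or male PLX3397 3, and 9 without both libraries that stood apart, with 0 lower in the last case. Calls of all genes can change too when a library is left out, and they are not set beside these counts. With the trend over transcript length and GC content removed from each library, 5 genes were higher and 0 lower, against 3.28% and 8.15% of all genes, and the median change was 0.21. Rpl41, Rpl36 and Rps19 were called under all 29 alternatives tried, while Rpsa lost its call in 10 of 29 and Rpl35 in 8.

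In females, 7 of the 84 genes rose on PLX3397 (8.33%) and 0 fell, against 2.67% higher and 2.67% lower of all genes, 5.34% in either direction. The median change was 0.31, as large as in males, against -0.003 for all genes, and 83 of 84 changes were above 0. By subunit, 4 of 31 small-subunit genes rose (median 0.33) and 3 of 43 large-subunit genes (median 0.28), and none of the 3 of the P stalk (median 0.35). In 15 genes every female PLX3397 library lay above every control, against 5.13% of all genes.

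Rps25 had the smallest adjusted p of the 84 genes in females. It read 3388, 2973, 3338 and 2926 in female controls and 4676, 4328, 4806 and 4013 on PLX3397, without overlap. The change was 0.50 ± 0.103 (SE), adjusted p = 0.00727. Rps28, a small protein at the exit of the message from the ribosome, had the largest change among the 7 called, 0.67 ± 0.179 (SE), adjusted p = 0.0377. It read 969, 638, 967 and 890.4 in controls and 1385, 1583, 1535 and 1009 on PLX3397, where sample 4 only just exceeded the highest control. Rps21 read 481, 332, 427 and 479 in controls and 682, 807, 722 and 515 on PLX3397 and changed by 0.66 ± 0.175 (SE), adjusted p = 0.0340. Rps18 was nearest the threshold, at 0.45 ± 0.127 (SE), adjusted p = 0.0487.

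In the large subunit, Rpl17 read 1399, 1328, 1370.2 and 1418 in female controls and 2286, 1957, 2289 and 1699.5 on PLX3397. Controls lay close together and all drug libraries were higher, with a change of 0.57 ± 0.140 (SE), adjusted p = 0.0233. Rpl36 changed by 0.48 ± 0.119 (SE), adjusted p = 0.0229. Rpl30 read 1198, 1222, 1214 and 1524 in controls and 1848, 1828, 2098 and 1598 on PLX3397, and changed by 0.52 ± 0.138 (SE), adjusted p = 0.0360. Control 4 stood apart from the other 3 controls, and PLX3397 4 was only just above it. In males Rpl30 was not called, at 0.07 ± 0.138 (SE), adjusted p = 0.823, with overlapping groups, while Rps28 was at 0.56 ± 0.179 (SE), adjusted p = 0.0533. Rpl5 was again the lowest, at -0.04 ± 0.316 (SE), adjusted p = 0.973.

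Female PLX3397 4 was below the other 3 drug libraries for many of these genes. In it, 25 of the 84 genes were above their own mean over all 16 libraries, against 69, 75 and 83 in the other 3. Without it 21 genes were called, and without female PLX3397 1 or female control 2 a single gene was. Between these lay 2 without female PLX3397 2 or 3, 4 without female control 1 or 3, and 11 without male PLX3397 4, which enters through the shared estimate of the spread. As in males, calls of all genes are not set beside these counts. With the trend over length and GC content removed, 2 genes were higher, against 2.34% of all genes, while the median change stayed at 0.31. Rps25 was the gene that kept its call under all 29 alternatives. Rps18 lost it in 19, Rps28 in 12, and Rps21 and Rpl30 in 9 each.

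**Figure D2:**
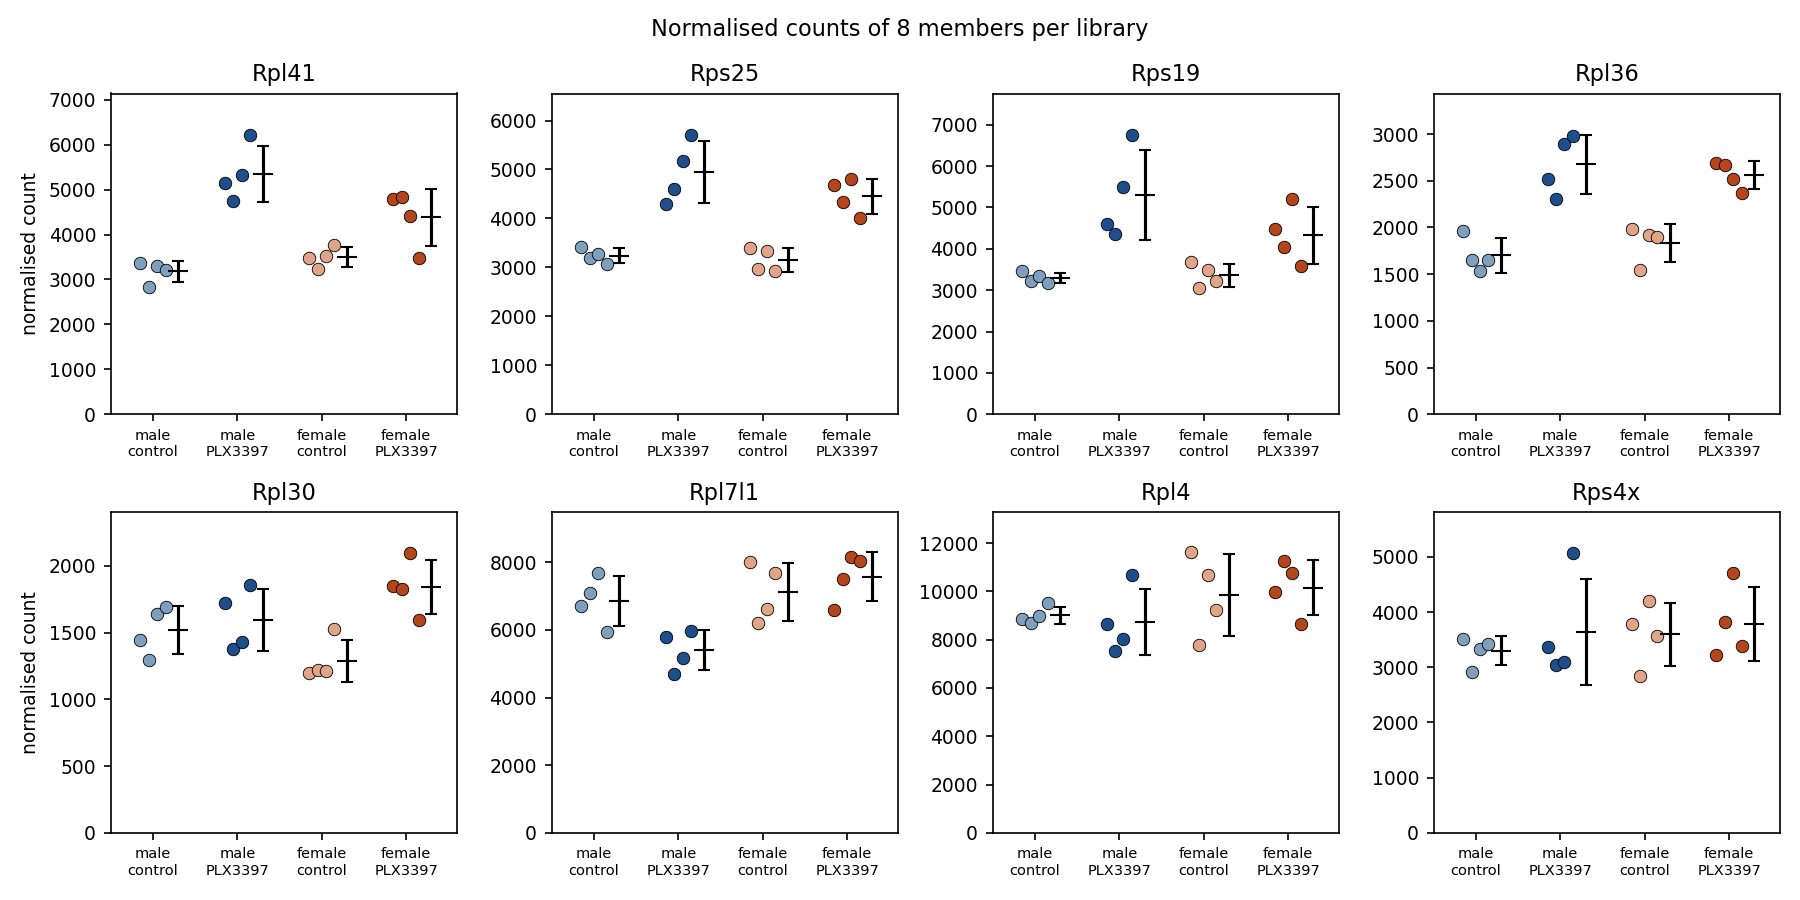
Normalised read counts of 8 genes in every library by group, with mean and SD (n = 4). For Rpl41, Rps25, Rps19 and Rpl36 all male PLX3397 libraries lie above the male controls, for Rpl30 this holds in females, and for Rpl4 and Rps4x the groups overlap.

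The responses of the sexes were then compared with each other. Rpl17, Rpl36, Rps18 and Rps25 were called in both, which is 22.2% of the 18 called in males and 57.1% of the 7 called in females. The test of the difference between responses, females minus males, called 0 of the 84 genes, as it called 0 of all genes (0%). At an unadjusted p under 0.05 it had 3: Rpl30 at 0.45 ± 0.194 (SE), Rpl7l1 at 0.44 ± 0.162 (SE) and Rpl41 at -0.43 ± 0.165 (SE), against 2010 of all genes. The median difference was 0.02. The SE of a gene's difference had a median of 0.213, so a difference in response as large as the median change itself would be within 2 SE of 0. Among core genes, the change in males and the change in females went together across genes, with Pearson's r of 0.632 and Spearman's rho of 0.575 over 77 genes, against 0.437 and 0.341 over all genes. The comparisons share no library, but share 1 estimate of the spread, and genes of one library are not independent, so no p is given.

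**Figure D3:**
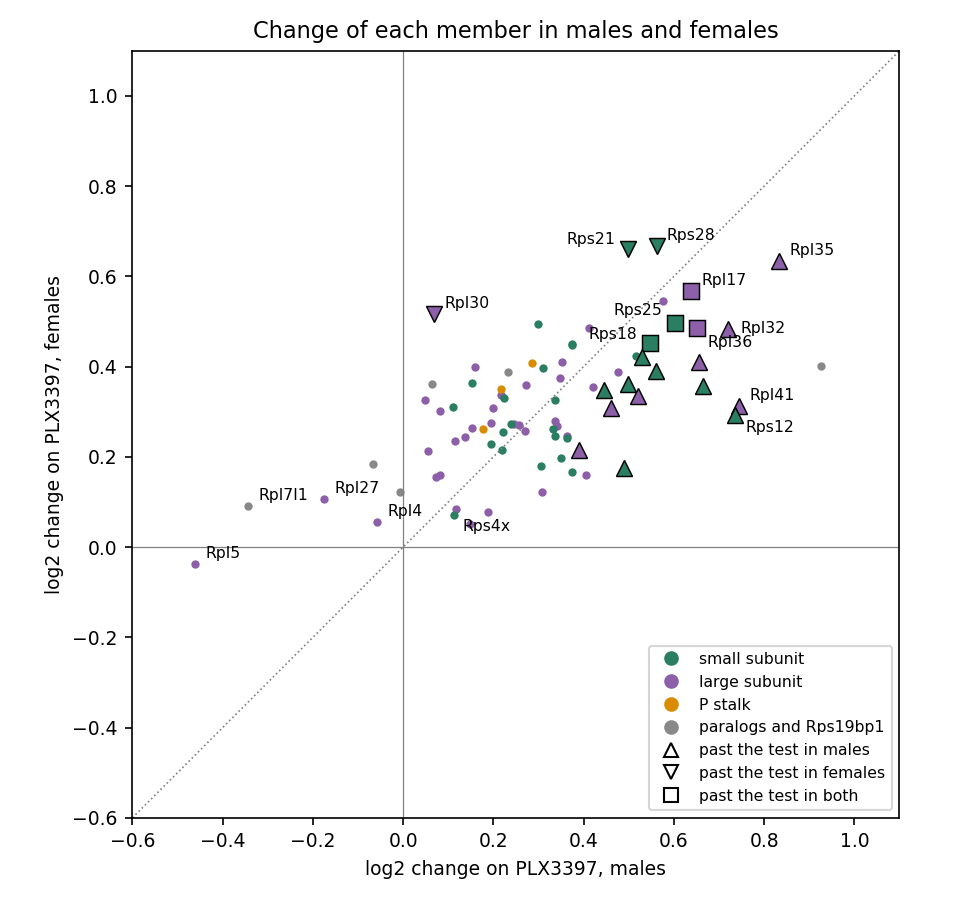
Change on PLX3397 in males (horizontal axis) and in females (vertical axis), in log2, for 83 of the 84 genes, coloured by subunit, with larger triangles and squares for genes called in one sex or in both. Rps27rt lies outside the axes. Most points lie above 0 on both axes, with 6 genes to the left of 0, among them Rpl5, Rpl7l1, Rpl27 and Rpl4.

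Females and males were also compared on each chow. On control chow none of the 84 genes was called and none had an unadjusted p under 0.05, with a median difference of -0.01, while 0.0663% of all genes were called. On PLX3397 1 of 84 was called, Rpl7l1, which was higher in females by 0.49 ± 0.115 (SE), adjusted p = 0.0238. Over all genes 5.43% were called there, 4.28% higher and 1.15% lower in females, and 6.76% did not overlap with females higher, which held for Rpl7l1 alone of the 84. Rpl7l1 encodes a nucleolar relative of Rpl7. It read 5804, 4682, 5178 and 5958 in males on PLX3397 and 6582, 7503, 8161 and 8038 in females, against 6706, 7104, 7694 and 5928 and 7999, 6196, 6607 and 7675 in the control groups. The male drug libraries were the low ones, and in males its change was -0.34 ± 0.115 (SE), adjusted p = 0.0646. Its call was lost in 10 of 29 alternatives, among them equal column totals.

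None of the 4 X-linked genes was called between the sexes. Rps4x, which has a Y-linked copy in humans but not in mice, read 3517, 2922, 3339 and 3416 in male controls and 3789.9, 2834, 4205 and 3567 in female controls, a difference of 0.11 ± 0.168 (SE), adjusted p = 0.992. Rpl10 was at -0.16 ± 0.130 (SE), adjusted p = 0.983, Rpl36a at -0.04 ± 0.153 (SE), adjusted p = 0.999 and Rpl39 at 0.03 ± 0.199 (SE), adjusted p = 0.999. On PLX3397 the differences were 0.07, -0.04, 0.07 and -0.06 in the same order, with SE of 0.168, 0.130, 0.153 and 0.199. None of the 4 was called for PLX3397 in either sex, and in males Rpl39 had the largest change, 0.48 ± 0.199 (SE), adjusted p = 0.152.

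Column totals were lowest in male PLX3397 2 and 3, so the comparisons were repeated with every library scaled to the same total. This moved the median change of all genes by 0.16 in males and by -0.01 in females. In males 47 ribosomal protein genes were then higher and 0 lower, against 6.85% and 4.66% of all genes, with a median of 0.47. In females 13 were higher and 0 lower, against 2.94% and 3.03%, with a median of 0.30. The 6 added in females were Rpl19, Rpl7, Rps27a, Rpl32, Rpl10a and Rplp1. The difference between the responses again had 0 calls, and its median became -0.15.

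Between the sexes on PLX3397 the direction depended on this choice. The median difference of the 84 genes was -0.001 with values as deposited, -0.20 with equal column totals, -0.16 with quantile normalisation and 0.21 with the trend over length and GC content removed. Removing the trend also recentred each library on its mean, and moved the median of all genes there by 0.12. Equal column totals moved it by -0.20. With them, 0.992% of all genes were higher and 1.9% lower in females, and of the ribosomal protein genes 0 were higher and 4 lower: Rpl3 at -0.42 ± 0.0868 (SE), Rpl41 at -0.49 ± 0.111 (SE), Rps19 at -0.49 ± 0.120 (SE) and Rpl10a at -0.37 ± 0.0923 (SE). With values as deposited these 4 were at -0.22, -0.29, -0.29 and -0.17, and none was called.

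Within groups, the genes moved together from library to library. After the group means were taken out, pairs of the 77 core genes had a median correlation of 0.576 over the 16 libraries, and 97.0% of pairs were above 0. The median was 0.0400 for 8147 other protein-coding genes in the same range of levels. These points share their library and its depth. Rps7 followed the mean of the other core genes most closely, at 0.951, and Rpl5 least, at 0.0261, with Rpl10 the next at 0.403. Single libraries showed this: in male PLX3397 4, 80 of 84 genes were above their own mean over all libraries, against 34 in male PLX3397 2, and in female control 2 only 2 were, against 14 to 32 in the other female controls.

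**Figure D4:**
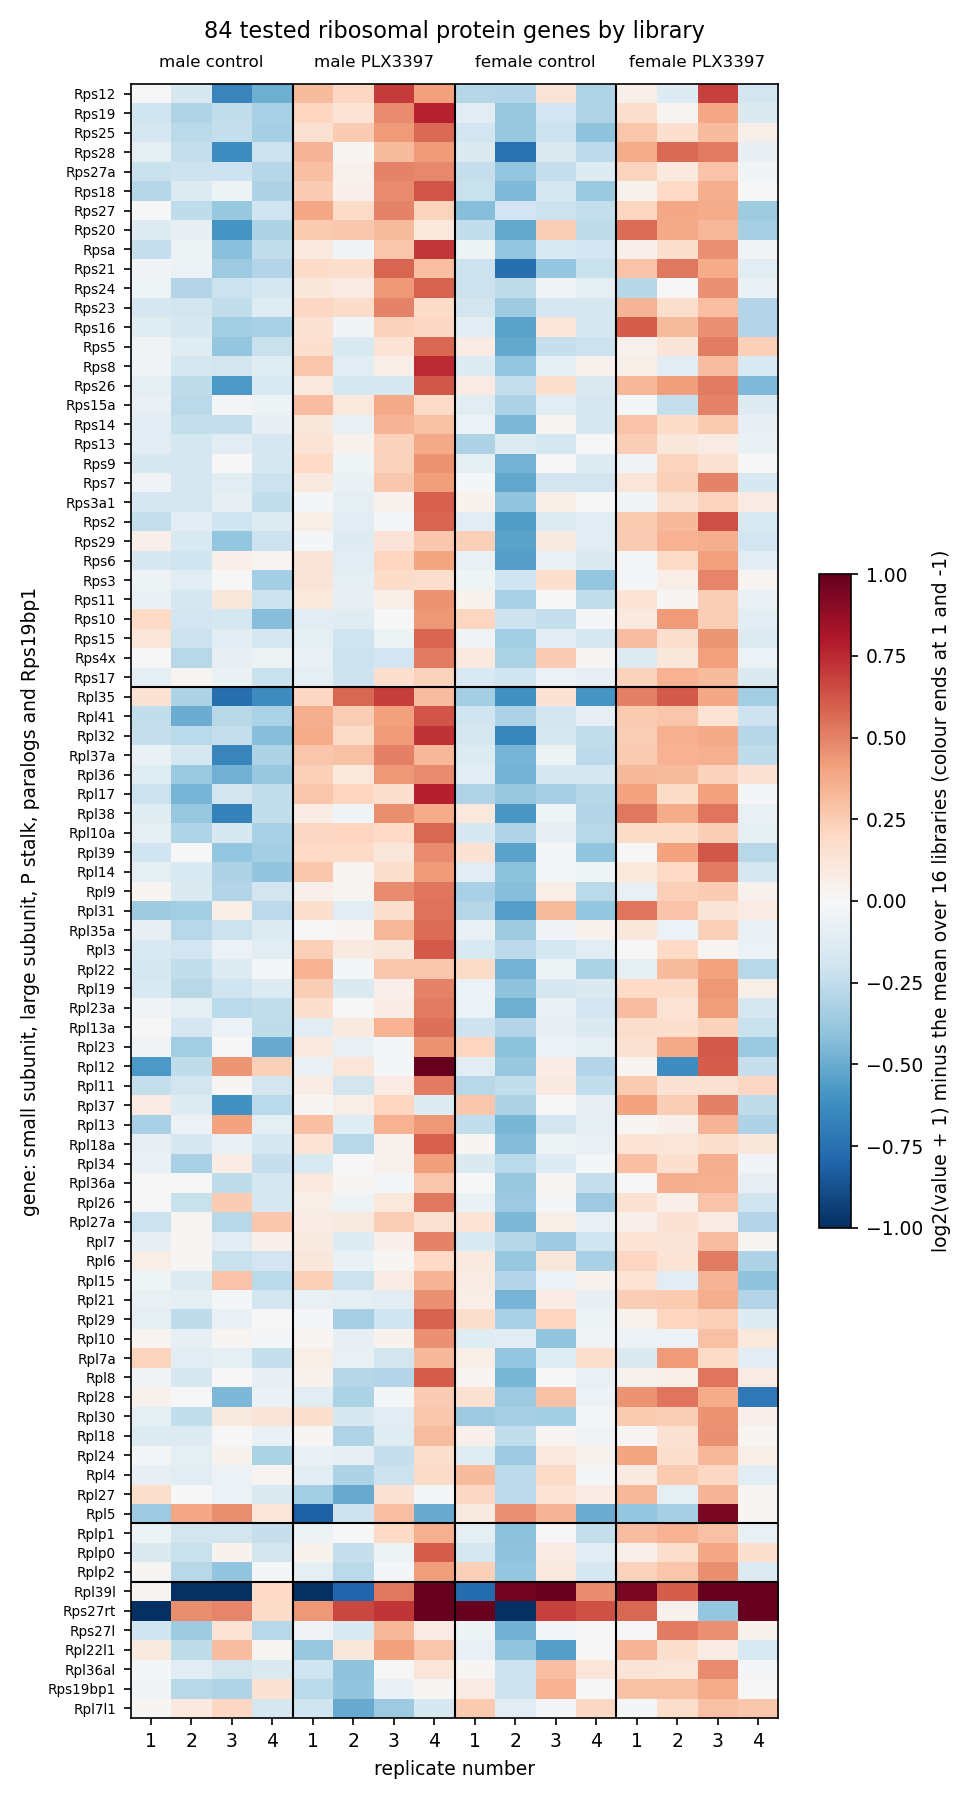
Deviation of each of the 84 genes (rows) from its own mean over 16 libraries (columns, by group), in log2, with colours ending at -1 and 1. Female PLX3397 3 and male PLX3397 4 are high in most rows, female control 2 is low, and female PLX3397 4 is below the mean in most rows, with 25 of 84 above it.

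The size of the change was only weakly related to properties of the transcript. Across the 77 core genes its correlation with log2 transcript length was -0.267 in males and -0.356 in females, with GC content 0.0622 and 0.113, and with the mean level -0.0119 and -0.0564. The 28 core genes with transcripts of up to 600 bases had median changes of 0.36 in males and 0.35 in females, and the 49 longer ones 0.31 and 0.27. The 1335 other protein-coding genes with transcripts of up to 1000 bases had medians of 0.06 and 0.07. For the 595 of these at or above the lowest level of a core gene the medians were -0.05 and 0.10.

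Paralogs were set beside their partners, with which they can share reads. Rpl36al, whose coding sequence is 87.7% identical to that of Rpl36a, was the more abundant, at 5409 per kilobase in male controls against 1055. Its change on PLX3397 was -0.01 ± 0.137 (SE) in males and 0.12 ± 0.137 (SE) in females, against 0.20 ± 0.153 (SE) and 0.31 ± 0.153 (SE) for Rpl36a, and none of these was called. Rpl7l1, at 64.8% identity, was at 5235 per kilobase against 4313 for Rpl7. In females Rpl7 was at 0.40 ± 0.115 (SE), adjusted p = 0.0547, just short of a call.

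Rps27l, which p53 is known to induce, was at 0.23 ± 0.166 (SE) in males and 0.39 ± 0.166 (SE) in females, and Rps27 at 0.53 ± 0.150 (SE) and 0.42 ± 0.150 (SE). Of these 4 values, that of Rps27 in males was called. Rpl22l1, which can take the place of Rpl22, was at 0.06 ± 0.195 (SE) and 0.36 ± 0.195 (SE), and Rpl22 at 0.36 ± 0.176 (SE) and 0.25 ± 0.176 (SE), with none called. Rps19bp1 was at -0.07 ± 0.158 (SE) and 0.18 ± 0.158 (SE), also without a call. Rpl39l, known from the testis, was near the floor, at 14.6, 3.10, 0 and 16.6 in male controls and 28.4, 22.2, 53.6 and 33.3 in females on PLX3397. These groups differ in both sex and chow and were not compared with each other. Its change on PLX3397 was 0.93 in males and 0.40 in females, called in neither. Rps27rt has the same coding sequence as Rps27, 252 bases with 100% identity. It read 827, 0, 400.3 and 387 in female controls, where sample 2 was at 0, and reads of the pair cannot be assigned to one or the other within that stretch.

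Ribosomal protein pseudogenes also hold reads. The table has 288 rows with such -ps symbols, of which 41 were tested, and 0 of 41 were called in either sex. The annotation used lists 6 of the 288 as protein-coding: Rpl10-ps3, Rpl36-ps4, Rpl36a-ps1, Rpl9-ps1, Rpl9-ps6 and Rps12-ps3. They are counted as pseudogenes here by symbol, also in the sums for Rpl10 and Rps12. Over all genes 11.7% were called in males and 5.34% in females. Of the 41, 6 had an unadjusted p under 0.05 in each sex, with median changes of 0.37 in males and 0.18 in females. The pseudogenes of Rpl10 summed to 283% of the mean level of Rpl10, those of Rpl28 to 78.8%, those of Rps23 to 72.5% and those of Rpl15 to 67.8%. How reads that fit both were counted is not given in the sources used here, so the values of these 4 genes are uncertain. The same holds to a lesser extent for Rps12, whose pseudogenes summed to 38.8% of its level, and for Rpl31, at 35.7%. Only rows with -ps in the symbol were summed, so pseudogenes under other symbols are not counted and other genes may be uncertain too.

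Other parts of the translation machinery were read from the same fits. Fau, a small-subunit protein made as a fusion with a ubiquitin-like protein, was at 0.32 ± 0.131 (SE), adjusted p = 0.147 in males and 0.43 ± 0.131 (SE), adjusted p = 0.0687 in females. Rack1, a scaffold on the small subunit, was at 0.15 ± 0.151 (SE), adjusted p = 0.594 and 0.17 ± 0.151 (SE), adjusted p = 0.655.

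Of translation factors and other genes that share the oligopyrimidine tract, 0 of 15 were called in either sex. Over all genes 11.7% were called in males and 5.34% in females, so with 15 genes a count of 0 does not set them apart. Their medians were -0.01 in males and 0.19 in females, with 4 and 1 at an unadjusted p under 0.05. Eef1a1, which brings aminoacyl-tRNA to the ribosome, was at 0.34 ± 0.114 (SE), adjusted p = 0.0636 in males. Eef2 was at -0.01 ± 0.138 (SE), Tpt1 at -0.56 ± 0.251 (SE) and Npm1, a nucleolar chaperone, at -0.20 ± 0.125 (SE), with adjusted p of 0.990, 0.184 and 0.360. With equal column totals 2 of the 15 were called higher in males, against 6.85% of all genes.

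Of 38 ribosome biogenesis factors, 0 rose and 1 fell in males (median -0.17), against 4.16% and 7.52% of all genes. In females 2 rose and 0 fell (median 0.19), against 2.67% in each direction. The gene that fell was Nop2, a methyltransferase of ribosomal RNA. It read 4459, 3779.6, 4048 and 3439.8 in male controls and 1865, 2111, 1799 and 2228 on PLX3397. No drug library reached the lowest control, and the change was -0.97 ± 0.148 (SE), adjusted p = 0.000322, called under all 29 alternatives. In females the genes called were Ncl, the nucleolar protein nucleolin, at 0.40 ± 0.0991 (SE), adjusted p = 0.0237, and Rrp9 at 0.58 ± 0.155 (SE), adjusted p = 0.0351.

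On PLX3397, 8 of the 38 biogenesis factors were higher in females than in males and 0 lower, with a median of 0.39, while 4.28% of all genes were higher and 1.15% lower. Nop58, of the box C/D particles that methylate ribosomal RNA, read 914, 684, 440.2 and 779 in males and 1699, 1566, 1229 and 1345 in females, a difference of 1.09 ± 0.189 (SE), adjusted p = 0.00653. Nob1, which cuts the precursor of the small-subunit RNA, differed by 0.69 ± 0.132 (SE), adjusted p = 0.00946. Rsl1d1 was at 0.59 ± 0.119 (SE), adjusted p = 0.0127, and Nolc1 at 0.73 ± 0.176 (SE), adjusted p = 0.0267. The other 4 were Ncl, Bysl, Nop2 and Sbds. With equal column totals 1 of the 38 was called there, and 2 with equal upper quartiles or quantile normalisation.

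Of 11 tested genes for RNA polymerase I and its factors, Ubtf, which opens the ribosomal RNA genes for transcription, changed in males by -0.57 ± 0.145 (SE), adjusted p = 0.0153, and no other was called in either sex. In males 1 of 11 (9.09%) was thus lower, against 7.52% of all genes. Of 19 genes for mTOR and S6 kinase control, 1 fell in males (5.26%, against 7.52% of all genes). In females 1 rose (5.26%, against 2.67%). Myc, which raises ribosome synthesis in many cells, changed in males by -0.98 ± 0.264 (SE), adjusted p = 0.0223. It read 3521, 3496, 3088 and 2765 in controls and 1677, 976, 1387 and 3033 on PLX3397, where sample 4 overlapped the controls. In females Eif4ebp1, the mTOR target that holds back cap-dependent initiation, rose by 0.64 ± 0.176 (SE), adjusted p = 0.0447. Mtor was at 0.55 ± 0.254 (SE), adjusted p = 0.199 in males, Larp1 at 0.01 ± 0.109 (SE), adjusted p = 0.980 and Rps6kb1 at 0.15 ± 0.154 (SE), adjusted p = 0.627. In females the mean of Mtor was lower on PLX3397, at 1134 against 1426 in controls, and it was not called there either. On PLX3397 Eif4e, which binds the cap, was higher in females by 0.87 ± 0.169 (SE), adjusted p = 0.0102, with Sesn2 at 0.81 ± 0.209 (SE), adjusted p = 0.0362 and Rheb at 0.48 ± 0.127 (SE), adjusted p = 0.0383. These were 3 of 19 (15.8%), against 4.28% of all genes higher in females on PLX3397. With equal column totals 1 of the 19 was called higher there, against 0.992% of all genes.

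Of 11 genes for ribosome rescue and quality control, 3 fell in males and 0 in females, against 7.52% and 2.67% of all genes lower. Usp10, which removes ubiquitin from small-subunit proteins, read 2681, 3373, 2219 and 3556 in male controls and 1775, 1568, 1775 and 956 on PLX3397, without overlap, and changed by -0.98 ± 0.214 (SE), adjusted p = 0.00582. Gtpbp1 was at -0.41 ± 0.115 (SE), adjusted p = 0.0267 and G3bp1, the partner of Usp10, at -0.35 ± 0.107 (SE), adjusted p = 0.0452. With equal column totals 1 was lower and 1 higher in males, against 4.66% and 6.85% of all genes. Between the sexes on PLX3397, G3bp1 was higher in females by 0.62 ± 0.107 (SE), adjusted p = 0.00655 and Abce1, which splits the subunits, by 0.57 ± 0.147 (SE), adjusted p = 0.0364. These were 2 of 11 (18.2%), against 4.28% of all genes.

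**Figure D5:**
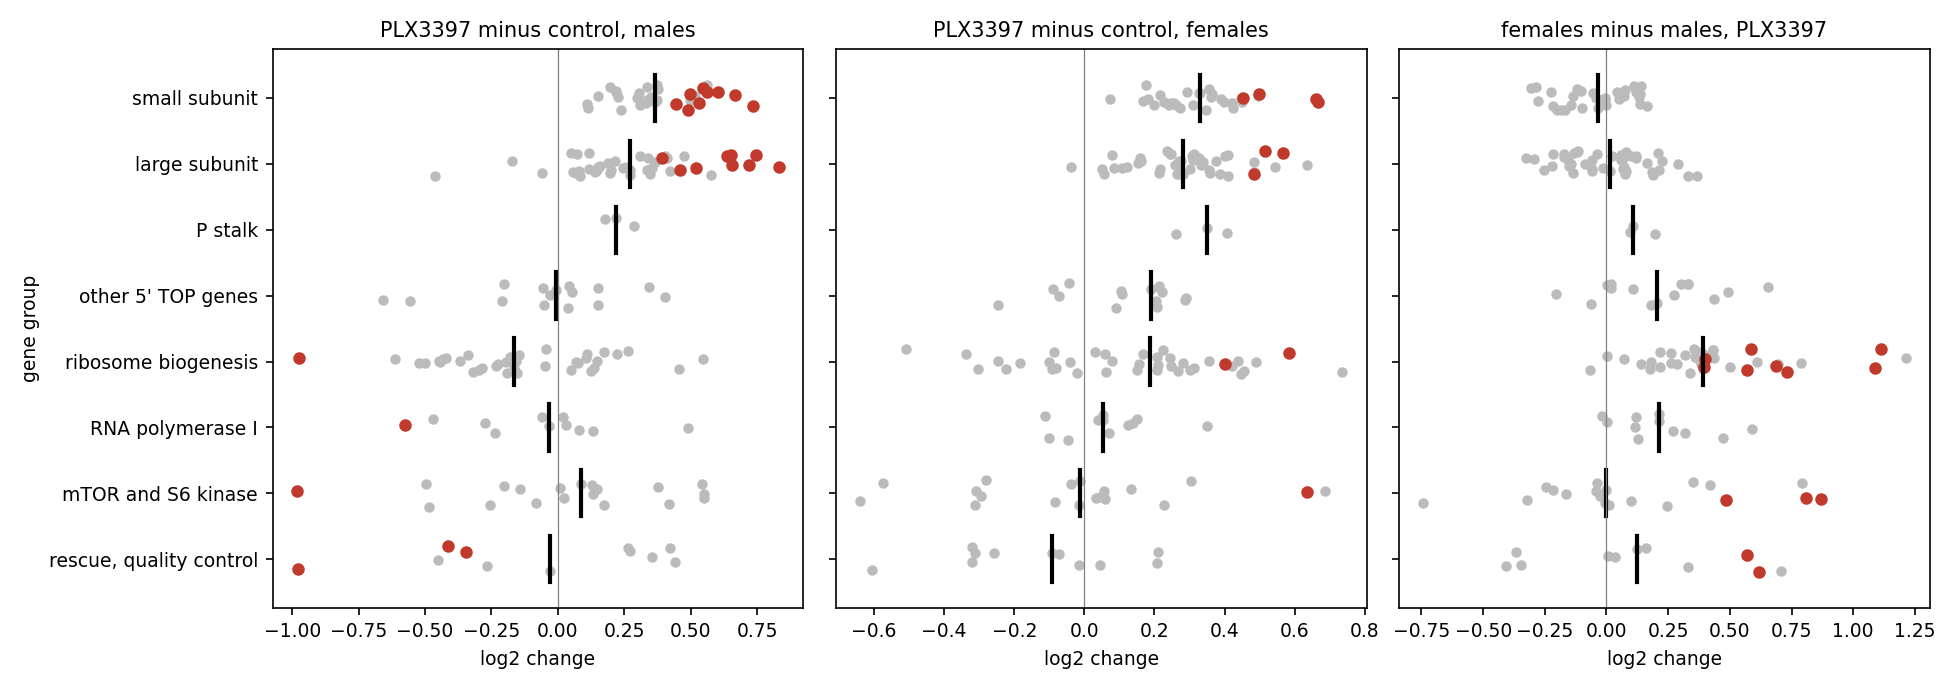
Changes in log2 (horizontal axes, whose ranges differ) for each core ribosomal protein gene by subunit and each tested gene of the other lists, in males, in females, and between females and males on PLX3397, with called genes in red and a black bar at each median. The ribosomal protein genes lie mostly above 0 in both sexes and around 0 between the sexes on PLX3397, where 37 of 38 biogenesis factors lie above 0 with values as deposited.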

How the data were processed

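RNA of 16 samples of sorted cortical microglia was amplified as cDNA from 500 pg of total RNA, and 150 pg of cDNA entered each library, per the labels' protocols. The authors deposited 1 table of normalised signal per gene (read counts after a scaling that is not given in the sources used here), which cannot be turned back into whole reads. The submitters' processing notes list, in no stated order, featureCounts 2.0.1 and its package Subread, the quantifier Salmon 1.5.2, the aligner STAR 2.7.9a and bcl2fastq 2.19.1. GRCm39 is the build they list, with no annotation release. Symbols were matched by Ensembl identifier to GENCODE M21, which names 51029 of 53850 rows and 19407 of the 19594 tested. Transcript lengths are those of the principal transcript with the longest coding part.

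A gene had to reach 10 in 4 or more libraries. Log2(value + 1) was fitted by limma (version 3.58.1, R 4.3.3), with a mean-variance trend, to all 16 libraries in 4 groups, and p-values were adjusted by Benjamini-Hochberg over all genes tested. The script was tested on simulated data. In all, 5 comparisons were made: drug against control within each sex, the difference between these responses, and females against males on each chow. Alternatives changed the pseudocount, the filter, the scaling, sample weights, a replicate block and each library in turn. Removing a trend over length and GC content, and equal totals without female PLX3397 4, were chosen after seeing the data. Removal of the trend also recentred each library on its mean. Figures and descriptions used Python 3.11.15 with pandas 2.3.3, matplotlib 3.10.9 and Biopython 1.88.

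The genes, the lists and the tests were chosen with earlier results of these data known. Genes named were a fixed set (Rpl41, Rps25, Rpsa, the P stalk, Rps27a, Rps6, X-linked genes, paralogs with partners), up to 8 per comparison with the largest called changes in each direction whose groups did not overlap, the largest fall, and up to 4 called genes per other list. The remaining called genes, and Rpl4, Rpl7, Rpl27, Rpl12, Rpl13, Rps7 and Rps9, were named after their values were seen.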

Additional observations from a re-analysis of the deposited data

Results flagged for a closer look

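In each group of 4, the highest or lowest library was checked against the other 3: it was singled out where its gap to the nearest, as a share of the group's whole range, passed Dixon's critical value for 4 samples. Chance singles out about 1 in 20 groups, and 11 of 168 were. In male PLX3397 4, Rpl12 was at 1210.02 with the nearest library at 635, Rpl17 at 2953 with the nearest at 2090.2, and Rps4x at 5072 with the nearest at 3366. This library also had the largest share of ribosomal protein transcripts. In female controls, Rpl30 was at 1524 in sample 4 with the nearest at 1222, Rps12 at 839.6 in sample 3 with the nearest at 630.5, and Rps27l at 1069 in sample 2 with the nearest at 1439. Sample 2 also had the lowest share of ribosomal protein transcripts in that group, 0.510% against 0.560% in the nearest. Rplp1 was at 2758 in female PLX3397 4 with the nearest at 3565. Rpl3l was at 1.53 in male control 4 and at 2.62 in male PLX3397 2, with all other libraries of those groups at 0. In male control 1 the median deviation of the 84 genes from their own means was -0.0793 on the log2 scale, with the nearest at -0.170.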

How the results depend on the processing

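In males, 47 genes were higher with equal column totals, 48 with equal totals and without female PLX3397 4, 33 with quantile normalisation, 5 with the trend over length and GC content removed and 9 without male control 4 and male PLX3397 3 (0 lower), against 18. The median was 0.47 under both versions of equal totals. Of all genes, 6.85% were higher in males with equal totals, 5.31% with quantile normalisation and 3.28% with the trend removed, against 4.16%. In females 2.94% of all genes were higher with equal totals and 2.34% with the trend removed, against 2.67%. With array weights 1 gene was lower, Rpl7l1. In females, 13 were higher with equal column totals, 29 with these and without female PLX3397 4, 3 with array weights, 2 with the trend removed and 2 with only the groups compared, against 7. Calls of all genes can change too with array weights, with only the groups compared or with libraries left out. They are not set beside the counts for those settings, which therefore do not single out ribosomal protein genes. The median difference between the responses was -0.15 with equal totals. Between the sexes on PLX3397, 0 genes were higher with equal column totals (with or without female PLX3397 4), equal upper quartiles, quantile normalisation, only the groups compared, or without male control 4 and male PLX3397 3. In these the number lower was 4 with equal totals, 1 with equal totals without female PLX3397 4, and 2 each with upper quartiles and quantile normalisation. Of all genes, 1.9% were lower there with equal totals, 1.74% with upper quartiles and 1.13% with quantile normalisation. The median of the ribosomal protein genes there was -0.20 with equal totals, -0.16 with quantile normalisation and 0.21 with the trend removed. The core genes alone took 0.536% of the column total in male controls and 0.746% in males on PLX3397. In females they took 0.518% in controls and 0.639% on PLX3397.

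Leaving out each library in turn gave 11 to 22 genes higher and 0 to 1 lower in males, 1 to 21 higher and 0 lower in females, 0 for the difference and between the sexes on control chow, and 0 to 1 higher on PLX3397, where the call was lost without male PLX3397 2 or 3 or female PLX3397 3 or 4. Medians ranged from 0.21 to 0.38 in males and from 0.23 to 0.41 in females. Calls of all genes with a library left out are not set beside these counts.

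Samples with the same replicate number did not deviate together over all tested genes, with correlations of -0.0446 to 0.0206. The labels do not say what a shared number means. These correlations cannot decide it, since a shared factor need not move many genes. With the replicate block 16 genes were called in males, 4 in females and 1 between the sexes on PLX3397. Calls of all genes with this block are not set beside these counts. For single genes, 7267 of 7627 values kept direction and side of the threshold, 273 lost it, 87 gained it and 0 reversed. The cause of these changes was not tested. With 4 libraries per group and no recoverable reads, the spread between libraries limits the precision.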
